A study of Mus musculus with 6 samples.

Results

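The serpins, the coagulation factors and the genes of fibrinolysis were compared between hypoxic kidneys of mice labelled Lpar3-/- and of mice labelled WT. The members are the protein-coding genes of the count table whose name starts with Serpin, together with F2, F3, F5, F7, F8, F10, F13a1, F13b, Proc, Procr, Pros1, Thbd, Tfpi, Tfpi2, Plat, Plau, Plaur, Fga, Fgb, Fgg and Vwf. This gives 82 genes, 61 serpins and 21 others, of 54532 named genes. The Lpar3-/- mice are described as lacking receptor 3 for lysophosphatidic acid, a signalling lipid, and the WT mice are wild type. Mice of both groups spent 12 h at 8% oxygen and normal pressure before the kidneys were taken, which makes this a comparison of genotypes at low oxygen; no response to low oxygen can be read from it. Each group has 3 libraries of polyadenylated RNA from whole kidney. The sources used here give neither the age, sex and strain of the mice nor the kind of Lpar3 allele, and they do not say whether each library came from a different animal, so the p-values measure the spread between these libraries, which may be technical.

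Serpins are a large protein family. Most of them trap a serine protease by offering it a loop as bait and then changing shape, so that both proteins are spent. In blood, they restrain the protease cascade that ends in thrombin, which turns fibrinogen into fibrin, and the opposing cascade in which plasminogen activators make plasmin, which dissolves fibrin. The liver makes most circulating clotting factors and inhibitors, endothelial cells carry the thrombomodulin and protein C receptor system on their surface, and the mouse kidney is a strong source of urokinase.

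The libraries labelled Lpar3-/- held 15988010 to 17743598 counts in named genes and the WT libraries 15953794 to 17940438, and the members took 0.150% to 0.176% of a library's counts. Lpar3 itself had 672, 592 and 580 counts in the libraries labelled Lpar3-/-, against 645, 634 and 577 counts in WT (log2 fold change 0.0033, adjusted p = 0.997 by edgeR). The targeted gene therefore does not set the groups apart in these gene-level counts, and every direction given rests on the labels alone. The 6 markers of the loop of Henle and distal nephron, which check the tissue label, were summed in CPM (counts scaled to a common library total, with TMM factors). The sums were 5039 to 5402 CPM in the libraries labelled Lpar3-/- and 4230 to 4804 CPM in WT, without overlap. All 6 had a positive log2 fold change and edgeR called 0. Their part in the members' values was not tested. Of the hepatocyte markers, Ahsg, Cps1 and Cyp3a11 had 3 counts or fewer in each of the 6 libraries and Apoa1 at most 11, while the 5 tested, Ttr, Apob, Hp, Alb and Apoa2, ranged from 5 counts (Apoa2) to 1729 counts (Ttr) in a library. Markers of tubular injury set WT replicate 2 apart, with a sum of 1044 CPM against 571 to 657 CPM in the 5 other libraries. The 6 adipocyte markers summed to 19.4 to 54.9 CPM in the libraries labelled Lpar3-/- and to 63.7 to 140 CPM in WT, without overlap.

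Of the 82 members, 40 passed the expression filter and were tested, 23 serpins and 17 others. Another 22 had at most 23 counts in a library, and 20 had no count in any library. Of the 25 clade B serpins other than Serpinb2, most of which act inside cells, 20 were not tested, and 12 of these had no count. With p-values of the edgeR quasi-likelihood test adjusted over all genes tested (Benjamini-Hochberg) and a threshold of 0.05, 1 of the 40 differed, Serpinc1, the gene of antithrombin, which was higher in the libraries labelled Lpar3-/-. The background of this call is 0.374% of the 15225 genes tested, 0.125% for higher and 0.25% for lower calls. An unadjusted p below 0.05 was reached by 9 of the 40, 3 higher and 6 lower, where 9.18% of all genes tested reached it, 3.97% higher and 5.21% lower. The groups did not overlap in 10 of the 40, 5 with the libraries labelled Lpar3-/- above and 5 with them below, against 13.7% of all genes tested, 6.58% above and 7.12% below. The median log2 fold change of the 40 was -0.0025, beside -0.0036 for all genes tested. By limma-voom 1 member was called, Serpinc1, at a background of 0.361%, and likewise 1 with protein-coding genes alone (0.49%), with a replicate block (0.525%), without WT replicate 1 (0.955%) and without WT replicate 3 (0.322%). DESeq2 called 3 of 41 members, Serpinc1, Serpina1f and F13b, at a background of 1.08%. With no expression filter 6 of 62 members were called at a background of 1.95%, with these 3 among them as higher, and Serpina3g and Serpina7 among the 3 that were lower. In FPKM values tested by limma, 0 of 43 members were called, with a pseudocount of 1 (background 0.0487%) or of 0.1 (background 0.0703%). Since low genes pass the filter more easily when 1 group is high, these counts describe the members tested and not the 82. Serpina7, Serpina3g and Serpina10, among the 6 lower at an unadjusted p below 0.05, are such genes. Of their libraries labelled Lpar3-/-, 0, 1 and 1 reached the filter level of 0.581 CPM, against 3 WT libraries for each. The share of members at that p and their lean to lower values are therefore partly set by the filter.

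The promoter windows of Serpinc1 and of 4 other members with an unadjusted p below 0.05 are shown, to set the letters before these genes side by side. Each is the 250 bases before a RefSeq start of the gene (build GRCm38.p6), 5′ to 3′ on the strand of the gene. RefSeq windows were matched for 68 of the 82 members and for 6 of the 9 with an unadjusted p below 0.05. Capitals mark matches on either strand to the core of the hypoxia-inducible factor site (ACGTG or GCGTG), to a half-site of the liver and kidney factor HNF1 (GTTAAT) and to the core of STAT sites (TTCNNNGAA). No matches of different motifs overlapped in these windows. They lie at chr1:160978333-160978582 on the plus strand for Serpinc1, chr1:139501457-139501706 on the plus strand for F13b, chrX:139085237-139085486 on the minus strand for Serpina7, chr12:103695530-103695779 on the minus strand for Serpina1f and chr12:104235897-104236146 on the plus strand for Serpina3g.
Serpinc1: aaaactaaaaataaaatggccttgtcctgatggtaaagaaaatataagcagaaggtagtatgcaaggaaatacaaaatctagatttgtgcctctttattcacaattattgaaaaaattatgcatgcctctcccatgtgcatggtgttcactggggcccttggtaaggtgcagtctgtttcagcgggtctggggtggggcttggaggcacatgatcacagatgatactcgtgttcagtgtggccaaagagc
F13b: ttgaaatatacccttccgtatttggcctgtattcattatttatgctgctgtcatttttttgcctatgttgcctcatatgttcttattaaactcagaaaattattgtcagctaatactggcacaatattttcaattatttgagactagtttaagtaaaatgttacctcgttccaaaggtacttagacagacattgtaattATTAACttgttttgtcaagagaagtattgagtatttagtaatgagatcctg
Serpina7: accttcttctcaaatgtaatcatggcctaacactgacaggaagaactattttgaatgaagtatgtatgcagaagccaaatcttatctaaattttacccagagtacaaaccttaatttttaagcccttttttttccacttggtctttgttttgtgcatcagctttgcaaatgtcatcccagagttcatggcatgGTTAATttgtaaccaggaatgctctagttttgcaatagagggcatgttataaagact
Serpina1f: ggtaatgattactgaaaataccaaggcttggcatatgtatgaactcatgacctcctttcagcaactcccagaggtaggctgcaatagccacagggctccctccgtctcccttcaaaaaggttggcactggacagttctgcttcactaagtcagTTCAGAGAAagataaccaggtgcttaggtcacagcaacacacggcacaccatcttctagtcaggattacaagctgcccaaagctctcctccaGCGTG
Serpina3g: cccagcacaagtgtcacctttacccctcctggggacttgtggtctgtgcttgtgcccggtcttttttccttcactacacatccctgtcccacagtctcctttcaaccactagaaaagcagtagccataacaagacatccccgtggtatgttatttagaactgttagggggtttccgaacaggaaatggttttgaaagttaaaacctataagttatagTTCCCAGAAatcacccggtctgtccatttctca

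The window of Serpinc1 held none of the 3 motifs. F13b and Serpina7 each held an HNF1 half-site, 46 to 51 bases and 52 to 57 bases before the start. Serpina7 has a second RefSeq window, not printed, with the same half-site 69 to 74 bases before its start. Serpina1f held a hypoxia core, GCGTG, in the last 5 bases before the start and a STAT core 89 to 97 bases before it, and Serpina3g held a STAT core 25 to 33 bases before the start. Serpinf1, the sixth matched member with an unadjusted p below 0.05, held a hypoxia core, ACGTG, 89 to 93 bases before the start. Its window is not printed, and part of it lies in a 5′ exon of the GENCODE annotation. The printed window of F13b also ends inside the annotated gene, at 139501706 against a gene start of 139501702. Over the 81 windows of members, 15 (18.5%) held a hypoxia core, against 38.6% of all 32851 promoter windows. An HNF1 half-site was in 21.0% of member windows and 6.43% of all windows, and a STAT core in 13 of the 81 member windows and 7.02% of all windows. Many serpin genes are copies of each other, so their windows are not independent, and a match is a description of letters, not a bound site.

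The 40 members tested differed in level by about 3 orders of magnitude on the authors' FPKM scale, which divides by gene length. Plau, which encodes urokinase, was the highest at a mean of 204 FPKM over the 6 libraries and took 32.1% of the summed FPKM of all members. Serpinf2 (alpha 2-antiplasmin, the inhibitor of plasmin) followed at 107 FPKM, Proc (the anticoagulant protein C) at 92.2 FPKM and F13b (the carrier subunit of factor XIII) at 54.4 FPKM. These 4 genes made up 72.0% of the summed FPKM. Serpina1f, Serping1, Serpinh1, Plat, Fga and Tfpi2 came next, between 11.6 and 23.5 FPKM. The lowest of the 40 was F13a1, which encodes the catalytic subunit of factor XIII, at 0.187 FPKM.

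**Figure D1:**
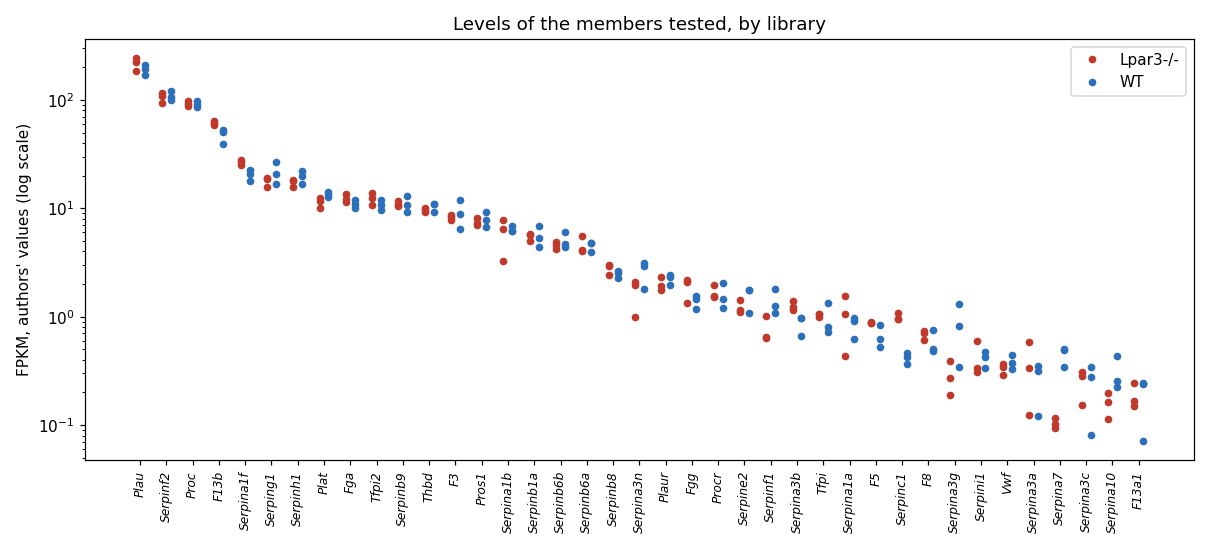
FPKM of 39 of the 40 members tested, on a log axis, in each library labelled Lpar3-/- (red) and WT (blue), ordered by the mean of the 6 libraries. Plau is highest at a mean of 204 FPKM and F13a1 lowest at 0.187 FPKM, and the points of the groups lie close together for most genes, with Serpinc1 and Serpina7 clearly apart.

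The comparison asks which transcripts differ between hypoxic kidneys labelled Lpar3-/- and WT. Among the inhibitors of thrombin and its cascade, Serpinc1 differed between these labelled libraries. Antithrombin, its product, inactivates thrombin and factor Xa, most strongly when bound to heparin. Serpinc1 (ENSMUSG00000026715, GRCm38 chromosome 1, 160978585 to 161005863, plus strand) had 164, 129 and 143 counts in the libraries labelled Lpar3-/-, against 65, 53 and 66 counts in WT. All 3 libraries labelled Lpar3-/- lay above all 3 WT libraries. On the CPM scale its level was 8.58 ± 0.665 in the libraries labelled Lpar3-/- and 3.60 ± 0.432 in WT (SD, n = 3 each). It rose 2.38-fold, a log2 fold change of 1.25 with a 95% interval of 0.88 to 1.63 (edgeR quasi-likelihood, adjusted p = 0.0102). When replicate 1 labelled Lpar3-/- was left out, edgeR gave a log2 fold change of 1.19 and an adjusted p of 0.0711 (0.077% of all genes called), and when replicate 3 labelled Lpar3-/- was left out, 1.28 and 0.0717 (0.0771% of all genes called), so the call was lost each time.

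The Serpinc1 gene overlaps Zbtb37, which lies on the opposite strand and shares 2942 of the 8546 exonic bases of Serpinc1 in the GENCODE M21 annotation of GRCm38. Whether counting used strand is not given in the sources used here, so reads of that stretch cannot be assigned with certainty. Zbtb37 had 156, 175 and 161 counts in the libraries labelled Lpar3-/-, against 115, 153 and 197 in WT, and the groups overlapped (log2 fold change 0.09, edgeR adjusted p = 0.945). Of 5 hepatocyte markers tested 4 had a negative log2 fold change, and the list summed to 78.8 to 99.9 CPM in the libraries labelled Lpar3-/- and 96.0 to 158 CPM in WT; its part in the Serpinc1 values was not tested. Among these markers, named after their values were seen, Alb (albumin) had 68, 50 and 62 counts in the libraries labelled Lpar3-/-, against 61, 32 and 26 in WT, while Ttr (transthyretin) had 755, 873 and 779 against 833, 1729 and 1215 in WT. Neither passed the edgeR test (adjusted p = 0.575 and 0.328).

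The other serpins that act on clotting, fibrinolysis or complement did not pass the test, and the 5 of them that were tested had negative log2 fold changes. Serpina10, whose product inhibits factor Xa together with protein Z, had 10, 11 and 7 counts in the libraries labelled Lpar3-/-, against 14, 26 and 15 in WT (log2 fold change -0.95, edgeR adjusted p = 0.538). It passed the filter through the WT libraries, since 1 library labelled Lpar3-/- reached the filter level of 0.581 CPM. Serping1 encodes C1 inhibitor, which restrains complement and the contact system. It had 36.8, 44.4 and 44.0 CPM in the libraries labelled Lpar3-/-, against 39.1, 63.0 and 48.9 CPM in WT, where replicate 2 stood above the rest. Serpine2 (protease nexin 1, an inhibitor of thrombin and urokinase) had 9.11, 11.9 and 9.59 CPM in the libraries labelled Lpar3-/-, against 9.03, 14.8 and 14.6 CPM in WT, and the groups overlapped. The abundant Serpinf2 had 219, 255 and 271 CPM in the libraries labelled Lpar3-/-, against 282, 233 and 250 CPM in WT, with an interval of -0.25 to 0.17 around its log2 fold change of -0.04. Serpind1 (heparin cofactor II), Serpina5 (protein C inhibitor) and Serpinb2 (plasminogen activator inhibitor 2) had at most 7 counts in a library and were not tested.

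**Figure D2:**
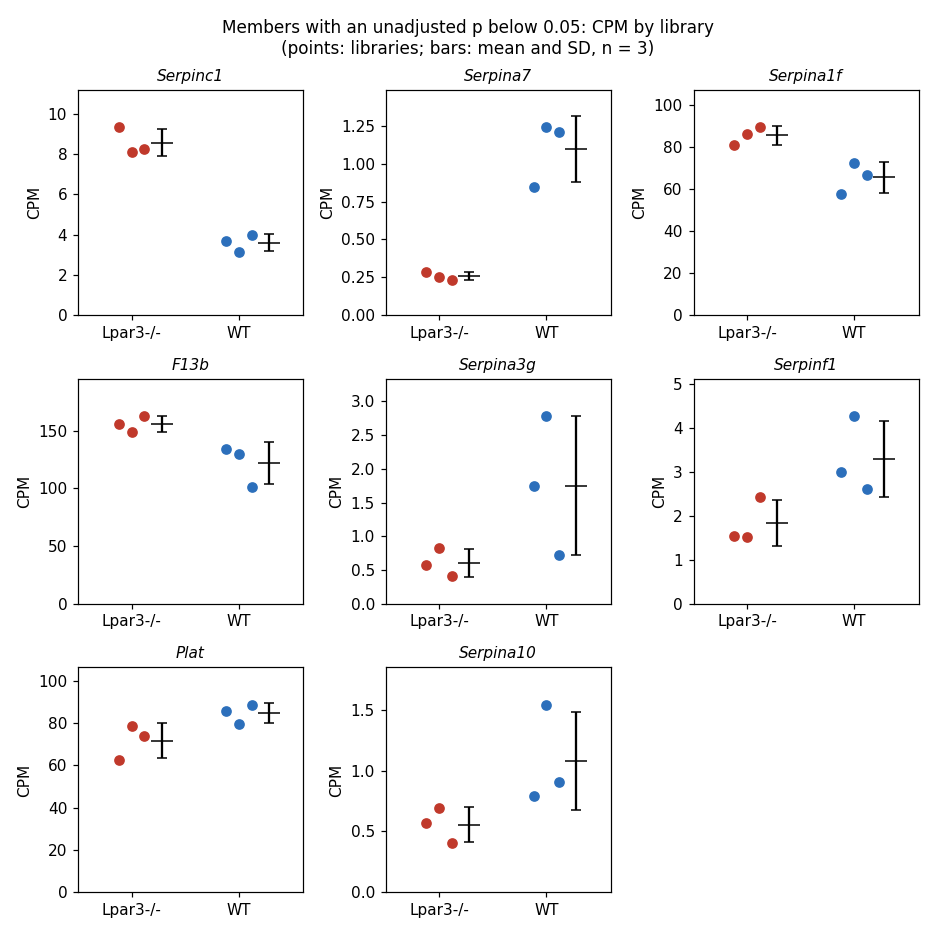
CPM in each library labelled Lpar3-/- (red, left) and WT (blue, right) for 8 of the 9 members with an unadjusted p below 0.05, with the mean and SD (n = 3) beside the points. Serpinc1 alone passed the adjusted threshold, at 8.58 ± 0.665 CPM in the libraries labelled Lpar3-/- and 3.60 ± 0.432 CPM in WT, and Serpina3g is the 1 gene of the 8 whose groups overlap.

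The serpin clusters on chromosome 12 hold relatives of antitrypsin and antichymotrypsin, which inhibit elastase, chymotrypsin-like proteases and cathepsins, and they went both ways, with 5 of 8 tested members positive and none called. Serpina1f (ENSMUSG00000021081, chromosome 12, 103688044 to 103695529, minus strand) had 80.8, 86.4 and 89.4 CPM in the libraries labelled Lpar3-/-, against 57.7, 72.2 and 66.7 CPM in WT. The groups did not overlap, and the log2 fold change was 0.38 (95% interval 0.20 to 0.57) with an adjusted p of 0.0994 by edgeR and 0.0151 by DESeq2. Without WT replicate 2 edgeR gave an adjusted p of 0.0331, at a background of 0.462%. Serpina3g had 10, 13 and 7 counts in the libraries labelled Lpar3-/-, against 31, 47 and 12 in WT, where replicate 3 fell among the other group and replicate 2 was highest (log2 fold change -1.55, edgeR adjusted p = 0.318). It passed the filter through WT, since 1 library labelled Lpar3-/- reached the filter level. Its nearest relative among the members, Serpina3f, is 88.5% identical over 1751 aligned transcript bases, so some reads may fit both and the counts are uncertain. Serpina3f had 3, 5 and 0 counts in the libraries labelled Lpar3-/-, against 1, 4 and 0 in WT. Serpina3n, which encodes an acute-phase inhibitor, had 2.05, 4.03 and 4.39 CPM in the libraries labelled Lpar3-/-, against 6.49, 6.04 and 3.75 CPM in WT, with overlap.

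Counts of the antitrypsin genes are uncertain, since the copies are nearly identical. The transcript of Serpina1a is 98.5% identical to that of Serpina1c, and that of Serpina1b 97.1% identical to that of Serpina1a. Serpina1b had 139, 301 and 272 counts in the libraries labelled Lpar3-/-, against 269, 253 and 277 in WT, so replicate 1 of the libraries labelled Lpar3-/- was low and the rest were alike. Serpina1a had 14, 45 and 34 counts in the libraries labelled Lpar3-/-, against 30, 30 and 19 in WT, and the same replicate was again lowest. Serpina3a, Serpina3b and Serpina3c had at most 46 counts in a library, with adjusted p-values of 0.602 to 0.988 (edgeR). Serpina3b had 45, 46 and 42 counts in the libraries labelled Lpar3-/-, against 36, 34 and 23 in WT, without overlap (log2 fold change 0.53). Serpina3a and Serpina3c overlapped between the groups. The transcript of Serpina3c is 87.8% identical to that of Serpina3m, so its counts are uncertain too.

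Serpina7, an X-linked gene that encodes thyroxine-binding globulin, the carrier of thyroid hormone in plasma, showed the largest fold difference of the members tested. It had 5, 4 and 4 counts in the libraries labelled Lpar3-/-, against 15, 21 and 20 in WT, without overlap. The log2 fold change was -2.07 (95% interval -3.04 to -1.10, edgeR adjusted p = 0.0793), on a total of 13 counts in the libraries labelled Lpar3-/- and 56 in WT. No library labelled Lpar3-/- reached the filter level, so the gene was tested through WT alone. Serpina6, which encodes the carrier of corticosteroids, had at most 7 counts in a library and was not tested.

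Clade B serpins, many of which protect cells from proteases, held no call. The 5 tested were Serpinb9, an inhibitor of granzyme B, Serpinb6a, Serpinb6b, Serpinb1a and Serpinb8, with log2 fold changes of -0.14 to 0.17 and adjusted p-values of 0.775 to 0.996 (edgeR). Serpinb9, the highest of them, had 36.4, 40.7 and 37.6 CPM in the libraries labelled Lpar3-/-, against 37.5, 45.5 and 32.5 CPM in WT, and the interval of its log2 fold change was -0.25 to 0.23. Serpinb6a shares exonic bases with Nqo2 and Ripk1 on the opposite strand. The transcript of Serpinb1a is 89.0% identical to that of Serpinb1b, and those of Serpinb6a and Serpinb6b are 86.4% and 86.5% identical to that of Serpinb6c. Some reads of these genes may therefore fit a relative as well.

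Among the remaining serpins, Serpinf1 encodes pigment epithelium-derived factor, a secreted protein that limits vessel growth and inhibits no protease. It had 27, 24 and 42 counts in the libraries labelled Lpar3-/-, against 53, 72 and 43 in WT, where replicate 3 barely cleared the highest of the other group (log2 fold change -0.84, edgeR adjusted p = 0.369). Serpinh1, the collagen chaperone Hsp47, had 44.4, 38.9 and 44.3 CPM in the libraries labelled Lpar3-/-, against 41.1, 53.9 and 49.0 CPM in WT, with overlap (log2 fold change -0.17, edgeR adjusted p = 0.673). Summed markers of fibroblasts and pericytes were 206 to 221 CPM in the libraries labelled Lpar3-/- and 184 to 336 CPM in WT, with WT replicate 2 highest. The adipocyte markers differed more, at 19.4 to 54.9 CPM against 63.7 to 140 CPM in WT, without overlap. The part of either list in these values, or in those of other members, was not tested. Serpini1, which encodes neuroserpin, an inhibitor of tissue plasminogen activator, had 40, 70 and 43 counts in the libraries labelled Lpar3-/-, against 61, 53 and 41 in WT.

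Of the coagulation factors, 8 of 12 were tested, 6 with a positive log2 fold change, none called and a median of 0.21. F13b had 156, 148 and 163 CPM in the libraries labelled Lpar3-/-, against 134, 130 and 101 CPM in WT. The groups did not overlap, WT replicate 3 being the lowest of the 6 (log2 fold change 0.35, 95% interval 0.14 to 0.57, edgeR adjusted p = 0.216, DESeq2 adjusted p = 0.0481). F5, the cofactor of factor Xa, had 6.61, 6.55 and 6.59 CPM in the libraries labelled Lpar3-/-, against 6.26, 3.91 and 4.66 CPM in WT, again without overlap but with WT replicate 1 close to the other group (log2 fold change 0.41, edgeR adjusted p = 0.566). F8, the cofactor of factor IXa, had 129, 96 and 123 counts in the libraries labelled Lpar3-/-, against 86, 127 and 83 in WT, and overlapped. The catalytic subunit of factor XIII, F13a1, had at most 29 counts in a library, so that on the FPKM scale the carrier subunit stood at 61.1 ± 2.70 FPKM and the catalytic subunit at 0.188 ± 0.0518 FPKM in the libraries labelled Lpar3-/-, and at 47.7 ± 7.16 and 0.185 ± 0.0991 FPKM in WT.

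Of the 3 chains of fibrinogen, 2 were detected. Fga (the alpha chain) had 34.8, 37.3 and 41.4 CPM in the libraries labelled Lpar3-/-, against 36.2, 33.4 and 30.4 CPM in WT, and Fgg (the gamma chain) had 81, 45 and 76 counts in the libraries labelled Lpar3-/-, against 58, 52 and 41 in WT. Both overlapped, with log2 fold changes of 0.18 and 0.42 and edgeR adjusted p-values of 0.606 and 0.671. Fgb (the beta chain) had 0 counts in each of the 6 libraries, which at 3 counts allows a level of up to 0.167 to 0.188 CPM per library, counting error only. The fibrinogen genes lie on chromosome 3, Fga 63.2 Mb from Lpar3. F3 lies 24.5 Mb from it and encodes tissue factor, the cell-surface trigger of clotting. F3 had 19.8, 22.3 and 21.4 CPM in the libraries labelled Lpar3-/-, against 16.5, 30.2 and 22.7 CPM in WT, so WT held both the lowest and the highest value (log2 fold change -0.13, edgeR adjusted p = 0.892). Vwf, which encodes the factor that tethers platelets to vessel walls, had 82, 93 and 96 counts in the libraries labelled Lpar3-/-, against 107, 89 and 120 in WT. F10, F7 and F2 (prothrombin) had at most 8 counts in a library and were not tested.

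The genes of the protein C and tissue factor pathway inhibitor system held no call. None of the 6 was called or reached an unadjusted p below 0.05 in edgeR, with log2 fold changes of -0.12 to 0.19, and DESeq2 and limma-voom called none of them either. Proc had 154, 145 and 138 CPM in the libraries labelled Lpar3-/-, against 136, 154 and 146 CPM in WT, and the interval of its log2 fold change ran from -0.16 to 0.17. Thbd (thrombomodulin, which turns thrombin into an activator of protein C) had 37.5, 36.1 and 34.6 CPM in the libraries labelled Lpar3-/-, against 35.1, 40.9 and 41.7 CPM in WT. Procr, the endothelial receptor of protein C, had 55, 49 and 70 counts in the libraries labelled Lpar3-/-, against 44, 50 and 70 in WT, and Pros1 (protein S, a cofactor of activated protein C) had 29.0, 33.6 and 30.2 CPM against 32.5, 38.0 and 27.8 CPM in WT. All 3 overlapped between the groups. Tfpi, the inhibitor of tissue factor and factor VIIa, had 96, 93 and 101 counts in the libraries labelled Lpar3-/-, against 78, 125 and 66 in WT, and its relative Tfpi2 had 24.1, 21.9 and 19.0 CPM against 18.9, 21.1 and 17.1 CPM in WT. Of the 10 endothelial markers 5 had a positive log2 fold change, and they summed to 709 to 765 CPM in the libraries labelled Lpar3-/- and 716 to 753 CPM in WT. In whole kidney, fewer cells of a type and less RNA per cell cannot be told apart.

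The 3 genes of plasminogen activation held no call. Plau had 435, 537 and 582 CPM in the libraries labelled Lpar3-/-, against 457, 406 and 501 CPM in WT, with overlap (log2 fold change 0.19, 95% interval -0.05 to 0.43, edgeR adjusted p = 0.670). Plat, which encodes tissue plasminogen activator, had 62.5, 78.5 and 74.0 CPM in the libraries labelled Lpar3-/-, against 85.8, 79.4 and 88.6 CPM in WT. The groups did not overlap, although replicate 2 of the libraries labelled Lpar3-/- lay just below WT replicate 2 (log2 fold change -0.24, 95% interval -0.43 to -0.05, edgeR adjusted p = 0.392). Plaur, the urokinase receptor, had 107, 81 and 81 counts in the libraries labelled Lpar3-/-, against 91, 103 and 107 in WT, with overlap.

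Further genes of coagulation, fibrinolysis and kinin release showed no call. Of 26 listed, 19 were tested, 11 had a positive log2 fold change, and the median was 0.018. EdgeR called 0, and 2 had an unadjusted p below 0.05. These were Hrg (histidine-rich glycoprotein, 15, 7 and 16 counts in the libraries labelled Lpar3-/-, against 28, 36 and 14 in WT, adjusted p = 0.503) and Kng2 (a kininogen, 4586, 4296 and 5021 counts against 4783, 3765 and 3602 in WT, adjusted p = 0.506). Plg, the gene of plasminogen, had at most 7 counts in a library, and F9, F11 and F12 had none. Of 10 listed serine proteases 7 were tested and edgeR called 0. Htra1 (3760, 3401 and 3459 counts in the libraries labelled Lpar3-/-, against 4430, 4120 and 3854 in WT) and St14, the gene of matriptase (994, 1066 and 1139 against 1023, 912 and 916 in WT), were the 2 with an unadjusted p below 0.05, at adjusted p-values of 0.321 and 0.526 (edgeR). Platelet markers were low, with sums of 7.57 to 10.5 CPM in the libraries labelled Lpar3-/- and 9.01 to 10.6 CPM in WT.

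**Figure D3:**
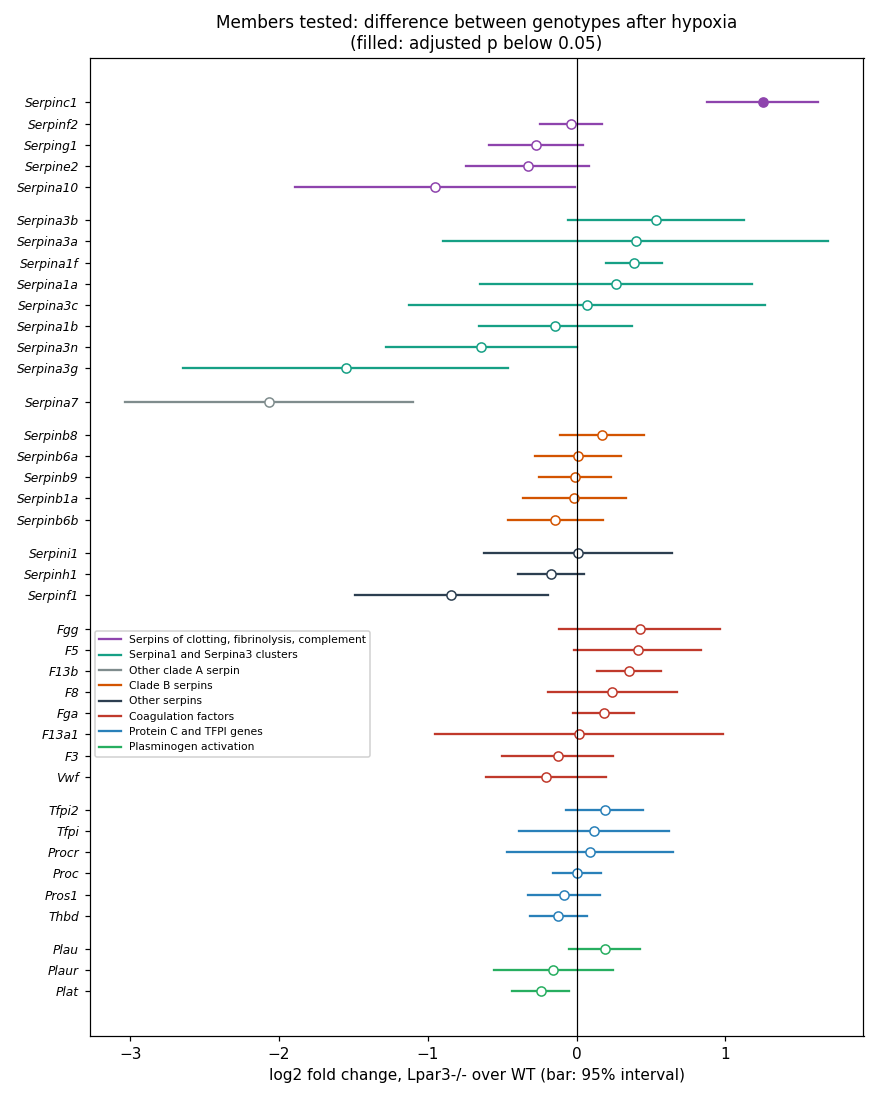
Log2 fold change of the libraries labelled Lpar3-/- over WT with its 95% interval for 39 of the 40 members tested, ordered by role and coloured by the 8 roles. Serpinc1 at 1.25 is the filled point past the adjusted threshold, Serpina7 at -2.07 lies farthest to the left, and the points of the protein C and clade B groups sit near 0.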

How the data were processed

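Whole-kidney RNA was extracted with CTAB, and polyadenylated RNA was bound to poly-T beads and copied from random hexamers, per the labels' protocols. Reads were aligned with HISAT2 2.0.5 to GRCm38 and counted per gene with featureCounts 1.5.0-p3, and the authors used DESeq2 1.20.0, per the submitters' processing notes. The sources used here do not give the strand setting, the annotation release or how reads with several matches were treated. The authors deposited a count and an FPKM value per gene and library, with the gene length. FPKM equalled counts over length and a library constant, with a largest relative deviation of 1.78e-08, so it holds no second measurement.

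Rows without a gene name, 377 of 54909 and 0.259% to 0.362% of counts, were left out. Counts were tested with edgeR 4.0.16 (TMM scaling, filterByExpr, quasi-likelihood test, R 4.3.3) on the 3 libraries labelled Lpar3-/- and the 3 WT libraries, without covariates, and p-values were adjusted by Benjamini-Hochberg over the 15225 genes kept. The test was checked on simulated data. DESeq2 1.42.0, limma 3.58.1, other scalings and filters, a replicate block and leaving out each library were alternatives. Between replicates, a chi-square of the counts per degree of freedom was 4.21 to 7.14 for the libraries labelled Lpar3-/- and 12.0 to 12.8 for WT. No 2 libraries of a group therefore agreed within sampling noise. Pairs from different groups gave 7.73 to 16.0, so the WT libraries were no closer to each other than to some of the other group. WT replicate 1 gave 8.66, 7.73 and 8.86 with the libraries labelled Lpar3-/-, against 12.8 and 12.0 with WT replicates 2 and 3. Intervals of a count of 0 cover counting error only.

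The members and lists were chosen with earlier results of these data known. Values are given for members with a p below 0.05, adjusted or not, for members that the choice names singly, for the inhibitors of clotting and the 10 highest members by FPKM, and for up to 4 genes of each further list with the lowest p. 1 member that was tested is not reported here, although the counts over the members include it.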

Additional observations from a re-analysis of the deposited data

How the results depend on the processing

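The number of genes called, 57 in the edgeR analysis reported, was 171 with DESeq2, 520 with no expression filter, 9 with limma on log2(FPKM + 1) and 13 on log2(FPKM + 0.1), and 12 to 149 with 1 library left out. Members called higher, 1 in the edgeR analysis reported, numbered 3 with DESeq2, 3 with no filter (which also called 3 lower), 0 in both limma analyses of FPKM, and 0 to 2 with 1 library left out. Members with an unadjusted p below 0.05 numbered 8 to 16 of 40 with 1 library left out, where 6.3% to 11.6% of all genes tested reached it, and the 16 came without WT replicate 1, at 11.6% of all genes. Serpinc1 kept its call in 12 of 16 alternatives. Over all 16, its log2 fold changes were 0.49 to 1.34 and its adjusted p-values 7.8e-08 to 0.181. It lost the call without replicate 1 or 3 of the libraries labelled Lpar3-/- (adjusted p = 0.0711 and 0.0717, edgeR) and with limma on log2(FPKM + 1) and log2(FPKM + 0.1) (adjusted p = 0.181 and 0.158), and the cause was not tested. No sign of pairing by replicate number was seen, since the deviations of same-numbered libraries correlated at 0.0026, 0.0051 and 0.051. With 3 libraries per group this check cannot exclude pairing. With a replicate block, 80 genes were called and 1 member, Serpinc1 (adjusted p = 0.0229). The stricter filter left 36 members. Among members without a call, the sign changed in 39 of 620 values. Depth limits the low members, such as Serpina7 with 13 counts in the libraries labelled Lpar3-/-.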

Other observations

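Single libraries held many of the extremes. Among the 40 members tested, WT replicate 2 was the highest library in 14 and WT replicate 3 the lowest in 12, where WT replicate 2 was highest in 21.9% and WT replicate 3 lowest in 20.2% of all genes tested. Macrophage markers summed to 99.3 to 118 CPM in the libraries labelled Lpar3-/- and 118 to 172 CPM in WT, with WT replicate 2 highest. Their part in the members' values was not tested.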
